A study of Mus musculus with 6 samples.

Results

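The keratin genes of cultured mouse embryonic stem (ES) cells were compared between cells given a scrambled control siRNA and cells given an siRNA against BRG1, each for 48 h. A gene was counted as a keratin where its name on the array was Krt followed by a digit, in the present or the older style (keratin-associated proteins were left out). This took 42 of 27962 gene names, read by 50 of 41174 probes. Of these, 5 were simple-epithelial keratins (Krt7, Krt8, Krt18, Krt19 and Krt20), with 7 probes, and 37 were other keratins, with 43 probes. Each group held 3 single-colour Agilent arrays of total RNA, 500 ng per labelling, from ES cells of an F1 background of 129 and C57BL/6. No other allele or agent was named, and the labels do not say whether replicates were separate cultures, so the p-values reflect spread from array to array only, and that spread may be technical.

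BRG1, encoded by Smarca4, is an ATPase that drives nucleosome remodelling by SWI/SNF complexes. Keratins are intermediate filament proteins of epithelia that polymerise only as pairs of a type I and a type II chain. Type I genes lie together on chromosome 11 and type II genes on chromosome 15, where Krt18, a type I gene, stands beside Krt8. Krt8 and Krt18 are the pair of simple epithelia and of the trophectoderm, the first epithelium of the embryo. Krt7 (type II) and Krt19 (type I) join them in ducts, glands and trophoblast, and Krt20 belongs to the gut and urothelium. The remaining keratins build stratified epithelia, hair and nail.

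The siRNA target and the cell type were checked first. Smarca4 stood at 65.8% of its control level (log2 -0.60 ± 0.06 SE, limma adjusted p = 0.00365). All 8 ES cell markers looked at, Pou5f1, Sox2 and Nanog among them, were well above background on all 6 arrays. With BRG1 siRNA 2 of them rose (Utf1 1.35-fold and Nanog 1.33-fold) and 1, Pou5f1, fell 1.25-fold (limma adjusted p from 0.0138 to 0.0298). Over all genes tested 9.87% rose and 13.4% fell. From 60.9% to 75.3% of spots were well above background per array, and 0 to 2 spots were saturated, none of them a keratin. One slide carried the 3 control arrays together with BRG1 siRNA replicate 1, and another carried the remaining BRG1 siRNA arrays. Precision is limited by there being 3 arrays a group.

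The sequences of 4 probes are given first, since each value below is what a stretch of 60 bases bound: those of Krt19, Krt7 and Krt14, which fell, and 1 of Krt10 for comparison. The Krt19 probe lies on chromosome 11 at 100250117 to 100250176, minus strand, in the mm7 build used by the array files, and the second probe for Krt10, a keratin of the upper epidermis, at 99495719 to 99495778, minus strand. They are shown together because, among the 40 pairs of keratin probes with the most matching bases, theirs has the highest identity: shifted against each other without gaps they match at 26 of 39 positions (66.7%), and the capitals mark these bases.

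Krt19: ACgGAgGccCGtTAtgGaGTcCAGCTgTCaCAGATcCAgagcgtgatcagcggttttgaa
Krt10: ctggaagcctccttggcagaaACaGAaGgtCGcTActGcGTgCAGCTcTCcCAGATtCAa

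The next 2 sequences are those of the second Krt7 probe (chromosome 15, 101409444 to 101409503, plus strand) and of the Krt14 probe (chromosome 11, 100312408 to 100313013, minus strand, so the probe joins bases that are apart in the genome).

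Krt7: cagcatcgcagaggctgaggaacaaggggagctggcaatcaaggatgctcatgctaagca
Krt14: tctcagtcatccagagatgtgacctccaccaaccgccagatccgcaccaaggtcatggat

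Probes are placed by mm7 coordinate and strand only, since exon models of that build were not used here. Each of these 4 probes has at least 1 reading frame without a stop codon. The signals of the Krt19 and second Krt10 probes went apart: Krt19 fell with BRG1 siRNA, and the second Krt10 probe differed by -0.05 (log2, limma p adjusted over all probes = 0.74).

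All 5 simple-epithelial keratins were well above background, the call the scanner software makes for a spot, on all 6 arrays. Of the 37 other keratins, judged by their brightest probe, 14 were above background on all 6 arrays, 17 on some and 6 on none. Of the 14, Krt1 counts, here and below, through a probe that cannot be assigned to its transcript, as set out later. The 6 below background throughout, counting all their probes, were Krt6a, Krt33b, Krt78, Krt80, Krt82 and Krt85. Per array, 20 to 28 of the 37 were above background with control siRNA and 15 to 23 with BRG1 siRNA, so the groups overlapped. Testing required the brightest probe to be above background throughout the control group or throughout the BRG1 siRNA group, and 25 keratins met this: 19 above background on all 6 arrays and 6 (Krt6b, Krt23, Krt27, Krt33a, Krt36 and Krt87) that passed through 1 group only. Krt87 is among the 6 because its spot on BRG1 siRNA replicate 2 was left out as an outlier. It was above background on every array where it was measured.

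**Figure D1:**
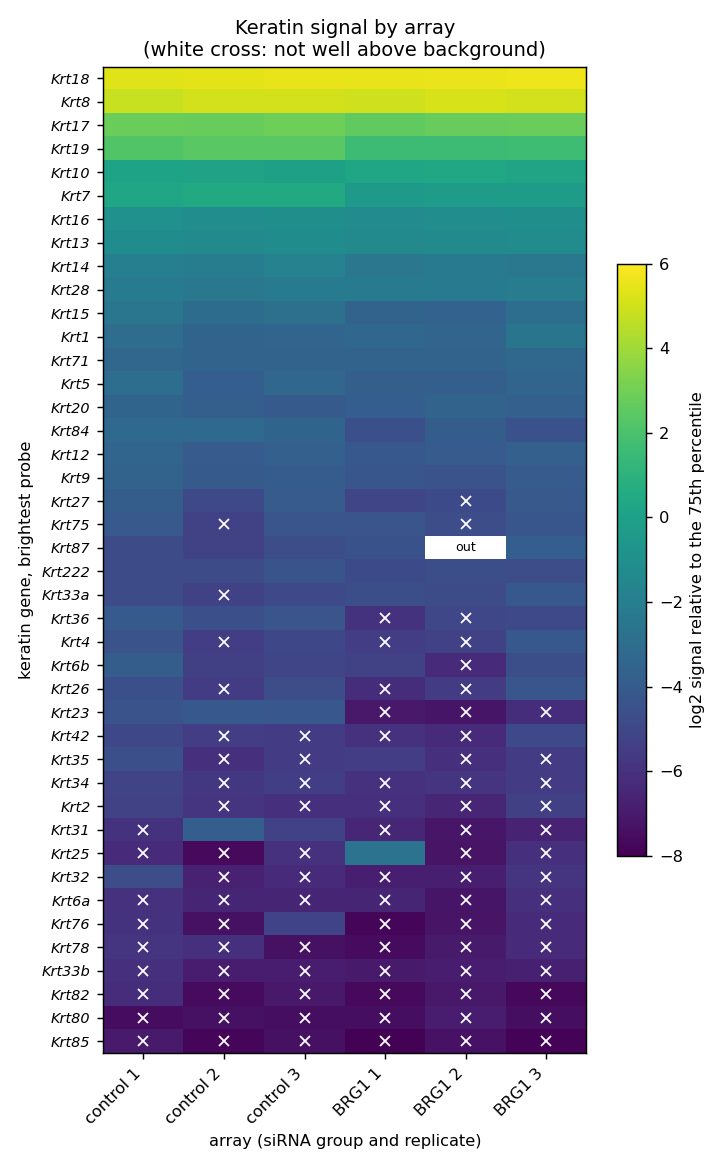
Log2 signal of the brightest probe of each of the 42 keratin genes (rows, sorted by mean signal, which also depends on the probe) on the 6 arrays (columns), after subtracting each array's 75th percentile; crosses mark spots not well above background and "out" a spot left out as an outlier. The simple-epithelial keratins carry no cross, and the rows at the bottom are crossed on nearly every array.

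With BRG1 siRNA, 5 of the 25 tested keratins fell and 0 rose (limma, Benjamini-Hochberg adjusted p under 0.05). Over all 17758 genes tested, 13.4% fell, 9.87% rose and 23.3% changed in either direction. The 5 were Krt7 and Krt19 among the 5 simple-epithelial keratins and Krt14, Krt23 and Krt84 among the 20 others tested. Krt23 was above background in controls only, so its entry into the test already required a difference. Among the 19 keratins above background on all 6 arrays, 4 fell and 0 rose, and their median log2 change was -0.13, beside -0.02 for all 16492 genes above background on all arrays. The split between rises and falls depends on the scaling, for keratins and for all genes. With spike-in scaling, which moves the median of all genes to 0.16, 4 of the 20 other keratins rose and 2 fell. Of all 17758 genes, 3358 rose and 635 fell with that scaling. With quantile normalization 2 of the 20 rose and 5 fell, beside 2000 and 2231 of all 17757 genes.

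**Figure D2:**
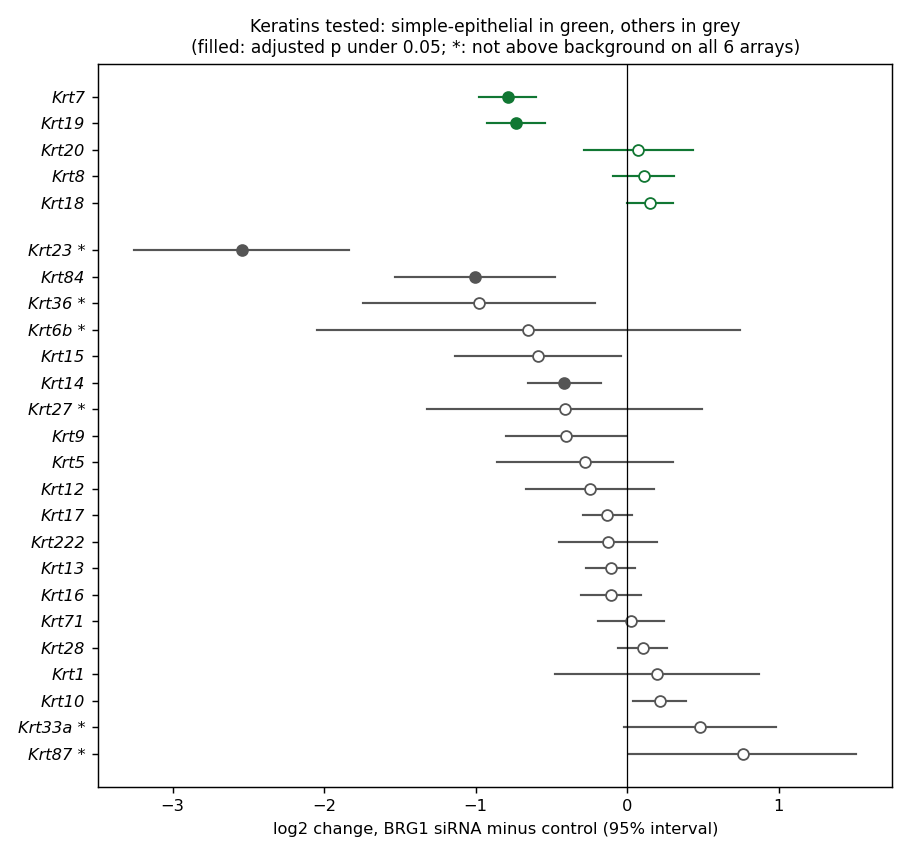
Log2 change (BRG1 siRNA minus control, horizontal axis) with its 95% interval for the 25 tested keratins, simple-epithelial in green and others in grey. Filled points passed the test and an asterisk marks genes not above background on all 6 arrays (Krt87 because 1 spot was left out as an outlier). Krt7 and Krt19 lie near -0.79 and -0.74, while Krt8, Krt18 and Krt20 lie at 0.07 to 0.15.

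Krt7 and Krt19 fell by similar amounts. Krt7, the type II keratin of ducts and trophoblast, read 2409.5, 3349 and 2954 in processed signal (linear scanner units before scaling) on control replicates 1, 2 and 3. The BRG1 siRNA arrays, in replicate order here and below, read 1613, 1632 and 1596. Every BRG1 siRNA array was below every control array, as for 25.1% of all genes tested. After subtracting the array's 75th percentile the log2 level went from 0.44 ± 0.13 (SD, n = 3) to -0.35 ± 0.06 (SD, n = 3), a change of -0.79 ± 0.08 (SE) or 1.73-fold (limma adjusted p = 0.00285). This probe lies on chromosome 15 at 101413898 to 101413957, plus strand.

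The second Krt7 probe, whose sequence is given above, showed the same order. It read 454, 497 and 489.8 on the control arrays and 268, 309 and 287 on the BRG1 siRNA arrays, again without overlap. Its change was -0.69 ± 0.09 (SE, log2; limma p adjusted over all 26258 probes tested = 0.00722). The 2 probes read one gene and are not independent replicates.

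Krt19, the type I keratin that lacks most of the tail other keratins have, read 8910.3, 12238 and 11262 on the control arrays. On the BRG1 siRNA arrays it read 6434, 6049.7 and 6221. All 3 BRG1 siRNA arrays lay below the lowest control. The log2 level went from 2.34 ± 0.14 (SD, n = 3) to 1.60 ± 0.04 (SD, n = 3), a change of -0.74 ± 0.08 (SE) or 1.66-fold (limma adjusted p = 0.00353).

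Both changes were also present within 1 slide. With slide as a block, which gives the same estimate as slide 1 alone, the Krt7 change was -0.86 (adjusted p = 0.0304) and the Krt19 change -0.76 (adjusted p = 0.039). The other slide holds no control array, so this estimate sets BRG1 siRNA replicate 1 alone against the controls. The remaining BRG1 siRNA arrays add only to the estimate of spread. With slide 1 alone, where 1 BRG1 siRNA array faces 3 controls and is assumed to vary like them, neither passed (adjusted p = 0.0725 for Krt7 and 0.0794 for Krt19). Over the 21 alternatives run, Krt7 ranged from -0.86 to -0.59 and Krt19 from -0.81 to -0.54.

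Krt8 and Krt18, the partners of these chains in simple epithelia, gave no call. The brightest Krt8 probe (chromosome 15, 101983072 to 101983131, minus strand) read 54561, 75639 and 68689.9 on the control arrays and 68809.8, 70712 and 66348 on the BRG1 siRNA arrays. The groups overlapped. The difference was 0.11 ± 0.08 (SE, log2; adjusted p = 0.383), with a 95% interval from 0.94 to 1.24 times the control level. The second Krt8 probe (101982940 to 101982999) was higher on every BRG1 siRNA array than on any control array after scaling, and differed by 0.17 ± 0.06 (limma p adjusted over all probes = 0.102).

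Krt18 (chromosome 15, 102018067 to 102018126, plus strand) read 79154, 102001 and 95304 on the control arrays. It read 100834, 95849.8 and 99037 on the BRG1 siRNA arrays. The scaled levels of the 2 groups did not overlap, with BRG1 siRNA higher, as for 18.9% of all genes tested. The difference was 0.15 ± 0.06 (SE, log2; adjusted p = 0.138), with a 95% interval from 0.998 to 1.23 times the control level. It passed with quantile normalization (0.24, adjusted p = 0.0345), also after normexp background correction (0.20, adjusted p = 0.0332), and in none of the other alternatives. The mouse genome carries processed copies of Krt8 and Krt18, which these probes may also detect.

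Krt20, the keratin of gut and urothelium, was dim. It read 172, 170.1 and 127 on the control arrays and 153, 173 and 149.7 on the BRG1 siRNA arrays, with overlap, and differed by 0.07 ± 0.15 (SE, log2; adjusted p = 0.747). Its 95% interval ran from 0.82 to 1.35 times the control level, and its sign turned in 4 of 21 alternatives, to as low as -0.05.

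**Figure D3:**
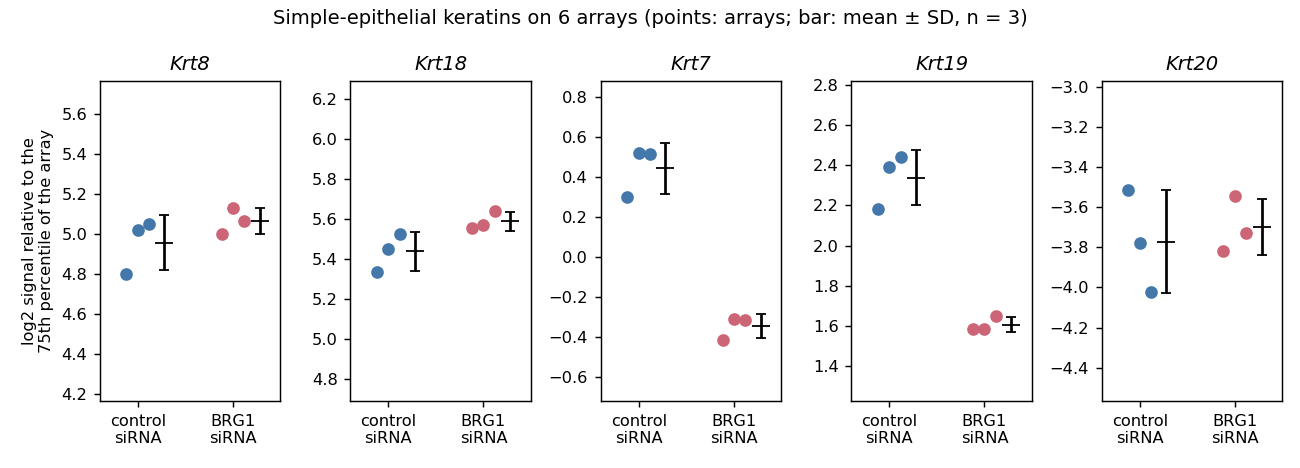
Log2 signal of the brightest probe of each simple-epithelial keratin after subtracting the array's 75th percentile; points are the 3 control siRNA (blue) and 3 BRG1 siRNA (red) arrays, bars the mean ± SD, and every panel spans 1.6 log2 units. The groups are apart and BRG1 siRNA is lower for Krt7 and Krt19, while Krt8 and Krt20 overlap.

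Since any scaling of an array cancels in the difference between 2 probes on it, the simple keratins were also set against each other within each array. The log2 difference of Krt19 minus Krt18 was -3.15, -3.06 and -3.08 on the control arrays and -3.97, -3.99 and -3.99 on the BRG1 siRNA arrays. Its shift of -0.89 was many times the spread on either side (SD 0.05 and 0.01, n = 3 each). A shift of this kind is the difference between the 2 changes given above. It is free of the scaling but is no further support for either change. Krt7 minus Krt8 was -4.50, -4.50 and -4.54 on the control arrays and -5.41, -5.44 and -5.38 on the BRG1 siRNA arrays, a shift of -0.90. Only the shift between groups is read from these values, since the level of a probe cannot be set against that of another.

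The pair that fell and the pair that gave no call moved little within themselves. Krt8 minus Krt18 shifted by -0.04 and Krt7 minus Krt19 by -0.05, each with overlapping groups. A two-sided exact permutation test over the 6 arrays gave p = 0.1 for Krt19 minus Krt18, Krt7 minus Krt8, Krt19 minus Krt8 (shift -0.84) and Krt7 minus Krt18 (-0.94), the smallest p that 3 arrays against 3 allow. It gave 0.4 for Krt8 minus Krt18 and 0.2 for Krt7 minus Krt19, and over the 6 pairs compared the adjusted values were 0.15 for the first 4, 0.4 and 0.24. The pairs were formed with the change of each keratin already known, so these p-values are no separate test.

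**Figure D4:**
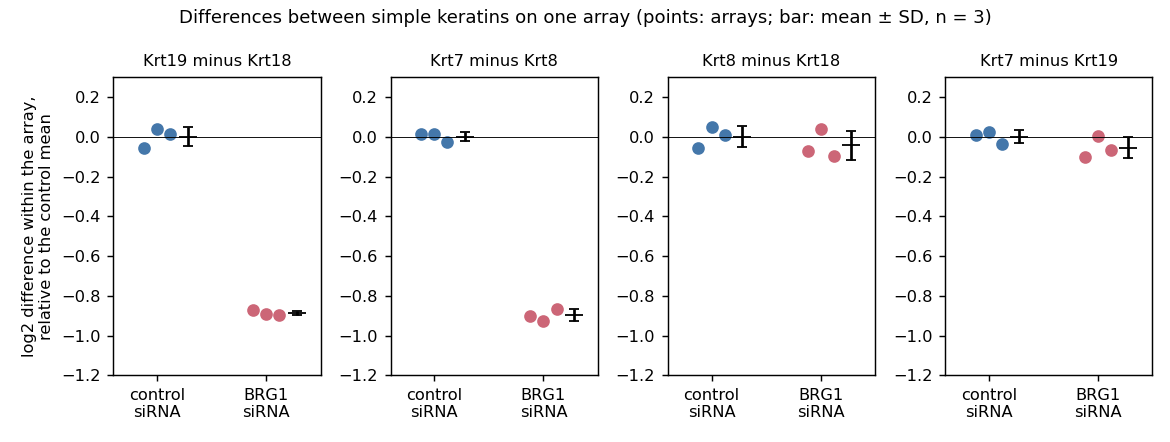
Log2 difference between 2 simple-epithelial keratins on the same array, relative to the mean of the 3 control arrays, for 4 pairs; points are arrays and bars the mean ± SD. Krt19 minus Krt18 and Krt7 minus Krt8 shifted by -0.89 and -0.90 with BRG1 siRNA, and the other 2 pairs by -0.04 and -0.05.

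The upstream sequence of Krt7 is shown as that of a keratin that fell, beside Krt18, which gave no call. RefSeq promoter windows of GRCm38.p6 matched 28 of the 42 keratins, and Krt19 was not among them. Only the 250 bases before the gene start are used. Capitals mark the motifs searched on both strands: the TATA box TATAAA, the GC box GGGCGG, the AP-1 site TGANTCA and the TEAD site GGAATG. The Krt7 window is chr15:101412153-101412402, plus strand, and the Krt18 window chr15:102027966-102028215, plus strand.

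Krt7: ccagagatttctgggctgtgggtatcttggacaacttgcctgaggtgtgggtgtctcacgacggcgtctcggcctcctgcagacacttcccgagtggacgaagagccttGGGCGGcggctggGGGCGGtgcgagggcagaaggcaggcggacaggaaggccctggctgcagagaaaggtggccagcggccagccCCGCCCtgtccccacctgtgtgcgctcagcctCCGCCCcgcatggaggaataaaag
Krt18: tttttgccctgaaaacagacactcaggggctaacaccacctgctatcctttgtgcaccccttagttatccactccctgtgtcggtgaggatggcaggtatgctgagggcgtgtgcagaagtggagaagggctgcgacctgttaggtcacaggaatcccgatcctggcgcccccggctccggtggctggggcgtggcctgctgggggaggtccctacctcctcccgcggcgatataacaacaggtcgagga

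The Krt7 window holds 4 matches to the GC box, the sequence bound by SP/KLF factors, 2 on each strand. Of the 28 keratins with a window, Krt7 and Krt75 held this motif, whereas 32.7% of all 32851 promoter windows did. The windows of Krt8, Krt18 and Krt23 held none of the 4 motifs. A match to the TATA box letters was in 14 of the 28 keratin windows, Krt84 and Krt20 among them, and in 12.4% of all windows. In Krt20 it lies 29 to 24 bases upstream on the strand of the gene. The Krt84 match lies 206 to 201 bases upstream on the opposite strand, so it is not at the place of a TATA box. The AP-1 site was in 1 keratin window (Krt13; 6.75% of all windows) and the TEAD site in 3 (Krt14, Krt20 and Krt78; 12.6% of all). These are matches of letters in a short window, and binding was not measured.

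Among the other keratins, Krt23, a type I keratin found in some glandular and gut epithelia, showed the largest change. Its probe (chromosome 11, 99587118 to 99587177, minus strand) read 91.8, 133 and 112 on the control arrays, against 16.4, 13.6 and 27.98 on the BRG1 siRNA arrays. It was well above background on all 3 control arrays and on none of the BRG1 siRNA arrays. For a cautious figure, each BRG1 siRNA array was entered at the lowest signal called above background there, or at the probe's signal if higher. This gave a 2.30-fold fall, which is not a lower limit, since other background corrections gave a smaller one. The measured log2 means were -4.25 and -6.80 (limma adjusted p = 0.0042). Since Krt23 entered the test through the control group, where it is high, its p-values are conditioned on that difference. The measured change of -2.54 became -0.97 with normexp background correction and the 75th percentile, and -0.91 with normexp and quantile normalization.

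Krt84, a type II hair keratin, read 211, 249 and 185 on the control arrays and 88.7, 140.3 and 88.2 on the BRG1 siRNA arrays. The groups did not overlap. The change was -1.004 ± 0.21 (SE, log2; 2.01-fold, limma adjusted p = 0.0245). It no longer passed with slide blocked (-1.29, adjusted p = 0.0611), with slide 1 alone, with no filter on dim probes and without any array other than BRG1 siRNA replicate 2, where adjusted p ran from 0.0572 to 0.091. With normexp and quantile normalization the change was -0.62 (adjusted p = 0.0202).

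Krt14, the type I keratin of basal cells of stratified epithelia, read 499.6, 542 and 605 on the control arrays and 396, 421 and 378 on the BRG1 siRNA arrays. The groups did not overlap. The change was -0.41 ± 0.10 (SE, log2; 1.33-fold, limma adjusted p = 0.0337), and it failed the test in 11 of 21 alternatives. These include slide as a block (-0.49, adjusted p = 0.107), median scaling (-0.36, 0.0988), spike-in scaling (-0.22, 0.213) and leaving out any array other than control replicate 2. The other basal-layer keratins did not pass: Krt5, its type II partner, differed by -0.28 ± 0.23 (adjusted p = 0.436) and Krt15 by -0.59 ± 0.22 (adjusted p = 0.111). Krt15 passed with normexp and quantile normalization (-0.43, adjusted p = 0.0425) and without BRG1 siRNA replicate 3 (-0.80, adjusted p = 0.0341). All 3 basal-layer keratins were above background on all 6 arrays.

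Krt17, a type I keratin induced in injured and growing epithelium, was bright in ES cells. It read 14277, 15731 and 15345 on the control arrays and 13108, 13413 and 13594 on the BRG1 siRNA arrays. The scaled levels overlapped and the difference was -0.13 ± 0.06 (SE, log2; adjusted p = 0.20), with a 95% interval from 0.82 to 1.02 times the control level. Krt16, another stress-induced type I chain, read 1039, 1050.0 and 1010.03 on the control arrays and 912, 922 and 958 on the BRG1 siRNA arrays and differed by -0.11 ± 0.08 (adjusted p = 0.39). Parts of Krt14, Krt16 and Krt17 are close in sequence, so their probes may cross-detect. The type II partners of the stress-induced chains were dim or absent: Krt6a was below background on all 6 arrays, and Krt6b, a near-identical neighbour, differed by -0.65 ± 0.56 (adjusted p = 0.448).

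Of the 4 suprabasal epidermal keratins on the array, 3 were tested and 0 passed. Krt10, a type I keratin of the differentiating epidermis, read 2139.7, 2469 and 2032 on the control arrays and 2511, 2652 and 2285.5 on the BRG1 siRNA arrays. It differed by 0.21 ± 0.07 (SE, log2; adjusted p = 0.0856) and passed with spike-in scaling (0.41) and with a mean-variance trend in eBayes (adjusted p = 0.0389). Its second probe was dimmer, at 149 to 175, and differed by -0.05. Krt9, a keratin of palms and soles, differed by -0.40 ± 0.16 (adjusted p = 0.127), and passed with quantile normalization (-0.32, adjusted p = 0.0301).

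The brighter Krt1 probe carries the accession of a cDNA clone and lies on the plus strand, opposite to the other Krt1 probe, which was below background on every control array. The difference of 0.20 ± 0.27 (adjusted p = 0.641) therefore cannot be assigned to the Krt1 transcript.

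Mucosal, corneal, root sheath and hair keratins gave few values. Krt13, a keratin of mucosa, differed by -0.11 ± 0.07 (adjusted p = 0.286) with its brighter probe and by -0.58 ± 0.26 with its dimmer one (p adjusted over probes = 0.173). Krt12, of the cornea, differed by -0.25 ± 0.17, and the inner root sheath keratins Krt28 and Krt71 by 0.10 ± 0.06 and 0.03 ± 0.09, with adjusted p from 0.303 to 0.862. Krt28 passed with spike-in scaling (0.30, adjusted p = 0.0262). Krt222, an atypical keratin-like gene, differed by -0.13 ± 0.13 (adjusted p = 0.528). Of 11 hair keratins on the array, 4 were tested and 1, Krt84, fell. Krt36 read 95.7 to 120.4 in controls and 34.9 to 66.0 with BRG1 siRNA, where 1 of 3 arrays was above background, and did not pass (adjusted p = 0.0737). Krt87 rests on 2 BRG1 siRNA arrays, since the spot of replicate 2 was an outlier, and Krt33a passed the filter through the BRG1 siRNA group. Both had higher scaled levels with BRG1 siRNA on every array measured, as for 18.9% of all genes tested. Neither passed in the main comparison (adjusted p = 0.127 and 0.144). Krt87, Krt33a, Krt36, Krt27 and Krt6b were not followed singly through the alternatives. With quantile normalization, with or without normexp, 2 keratins outside the simple-epithelial class rose, and no keratin followed singly was among them. These 2 rises are therefore among the keratins not followed, and which of them rose was not determined. The same holds for the rises with spike-in scaling beyond those of Krt10 and Krt28.

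By chromosome, 3 of the 16 tested keratins on chromosome 11 and 2 of the 9 on chromosome 15 fell, beside the 13.4% of all tested genes. Krt8 and Krt18, with 0 protein-coding genes between them in RefSeq, gave no call, and Krt16 and Krt17, the next keratin probes after Krt14 along chromosome 11, gave none either.

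Genes of junctions, other filaments and epithelia moved both ways. Each count below is to be read beside the 13.4% of all tested genes that fell and the 9.87% that rose. Of 18 desmosome and plakin genes, some of which tie keratin filaments to junctions, 13 were tested. Of these 3 rose and 2 fell, with a median log2 change of -0.10 beside -0.04 for all genes. The plakins Evpl, Macf1 and Dst rose 1.29-fold, 1.22-fold and 1.12-fold, while Perp, a desmosome membrane protein, and Pkp3, a plakophilin, fell 1.26-fold and 1.19-fold (limma adjusted p from 0.0033 to 0.0329). Desmoplakin (Dsp), which anchors keratins at the desmosome, differed by -0.26 ± 0.10 (adjusted p = 0.123).

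Among 15 tested intermediate filament genes of other classes, 1 rose and 4 fell (median -0.09). Ina, a neuronal filament gene, rose 1.88-fold and Des, the muscle filament gene, fell 1.69-fold, and Nefm and Lmnb2 fell 1.19-fold and 1.17-fold (limma adjusted p from 0.00141 to 0.0344). Vim, the bright filament gene of mesenchymal cells, differed by 0.12 ± 0.05 (adjusted p = 0.147).

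Of 15 tested epithelial transcription factors, 4 rose and 4 fell (median -0.02). Esrp2, a splicing regulator of epithelia listed with them, rose 1.31-fold, and Klf4 and Tfap2c rose 1.27-fold and 1.23-fold. Cebpa, Ovol1 and Cebpb fell 1.54-fold, 1.36-fold and 1.36-fold (limma adjusted p from 0.00504 to 0.0197 for these 6). Trp63, the master factor of stratified epithelium, was below background on all 6 arrays. Of 8 tested cornified envelope genes 1 fell, Lor (1.45-fold, adjusted p = 0.00417), and 0 rose.

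Krt7 and Krt19 are also made by trophoblast, endoderm and other cells, so trophoblast and endoderm markers are given beside them. Fibroblast markers are given as well, but not as those of a cell type known to make these keratins. Fewer cells of a type and less RNA per cell cannot be told apart in these bulk samples. Of 11 tested trophoblast markers, 3 fell (Rhox6 2.33-fold, Cdx2 1.93-fold and Eomes 1.58-fold) and 2 rose (Hand1 1.73-fold and Tfap2c 1.23-fold; limma adjusted p from 0.00147 to 0.0153). Their summed level, in units of the 75th percentile signal, was 10.8 to 11.9 on control arrays and 11.3 to 12.1 on BRG1 siRNA arrays, and Elf5 and Tpbpa were above background on no array. Tfap2c alone made up 6.96 to 7.64 of this sum in controls and 8.75 to 9.33 with BRG1 siRNA. Without it the sum was 3.80 to 4.70 in controls and 2.49 to 2.82 with BRG1 siRNA. Such sums weigh each marker by the brightness of its probe, so only their shift between groups is read.

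Of 10 tested primitive and visceral endoderm markers, 3 fell (Dab2, Lama1 and Amn, 1.49-fold, 1.46-fold and 1.16-fold) and 0 rose, with a summed level of 2.02 to 2.17 in controls and 1.81 to 1.82 with BRG1 siRNA. Without Lama1, the brightest of them, the sums were 1.45 to 1.66 and 1.41 to 1.48, which overlap. Afp and Apoa1 were above background on no array. Of 13 tested fibroblast markers, 7 fell and 2 rose, with a summed level of 47.1 to 48.5 in controls and 36.5 to 37.6 with BRG1 siRNA (19.4 to 21.5 and 12.6 to 13.7 without Acta2, the brightest). The rises were in Mgp (2.25-fold) and Lox (1.68-fold), and the deepest falls in S100a4 (2.12-fold), Fn1 (1.76-fold) and Thy1 (1.73-fold). The part of these cell types in the keratin changes was not tested.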

How the data were processed

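Total RNA of 6 samples was measured on 1 array each. Scans were extracted by the authors with Feature Extraction 9.5.3.1, per the file headers (9.5 per the submitters' processing notes), for Agilent design 014868, and the deposited intensity is the processed signal, background-subtracted and detrended within the array, with surrogate values switched on for spots too dim to measure. The deposited value table equals it (largest difference 0). Here log2 processed signal minus the 75th percentile of non-control spots was used. Control spots and outlier spots were left out, repeat spots were averaged by probe, and the brightest probe stood for its gene name. The comparison used the lmFit and eBayes functions of limma 3.58.1, run under R 4.3.3. Tests were two-sided, and p-values were adjusted by Benjamini-Hochberg over 17758 genes and a threshold of 0.05. Flags such as well above background are the deposited files' own. Older names were updated by accession, symbol or synonym through RefSeq tables of GRCm38.p6. No 2 arrays shared more than 1 spot value. The method was tested on simulated data. Keratins, lists and alternatives were chosen with earlier results of these data known, and the differences within an array, the marker sums without their brightest gene and the probe and promoter comparisons after the values were seen. Named are all simple-epithelial keratins, every other keratin past the threshold or above background on all 6 arrays, Smarca4, and up to 3 called genes per direction of each further list; a few others are named where a count or a partner chain called for it.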

Additional observations from a re-analysis of the deposited data

How the results depend on the processing

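Over 21 alternatives Krt7 and Krt19 kept their direction and were called in all but slide 1 alone, and Krt8 was called in none. Part of the 21 could not turn a direction, so their number overstates the stability. The deposited table equals the main input, and the filters, the replicate block and the eBayes settings leave the estimates of Krt7 and Krt19 unchanged. The count of called simple-epithelial keratins was 2 except with quantile normalization, with or without normexp (3 each), with Krt23 and Krt80 counted among them (3) and with slide 1 alone (0). The count of other keratins called was 3 and became 7 with quantile normalization with or without normexp, 6 with spike-in scaling, 4 with a mean-variance trend and robust eBayes, 1 with no filter on dim probes, 1 with slide 1 alone, and 2 with slide as a block, with signal required above background on all 6 arrays or with Krt23 moved to the simple class, and it was 1 to 2 when 1 array was left out. It was lowest, at 1, without control replicate 3 and without BRG1 siRNA replicate 1. Over all genes, 4139 of 17758 were called in the main comparison. Fewer were called with slide as a block (1392 of 17758), with median scaling (1734) and with no filter (1740 of 27961), among other settings. The percentages of all tested genes given above are those of the main comparison only. Slide 1 alone leaves 1 BRG1 siRNA array, and with slide as a block the estimate rests on that array too. What makes the keratin counts differ between settings was not tested. Signs turned for uncalled keratins near 0: with slide as a block or slide 1 alone for Krt20 (-0.0454), Krt1 (-0.0230) and Krt71 (-0.0393); with spike-in scaling for Krt13 (0.0908), Krt16 (0.0933), Krt17 (0.0678) and Krt222 (0.0713); with quantile normalization for Krt222 (0.0413); and with normexp and the 75th percentile for Krt71 (-0.0140). Leaving out 1 array at a time gave -0.0519 to 0.204 for Krt20, -0.0850 to 0.367 for Krt1, -0.205 to 0.00504 for Krt222 and -0.0532 to 0.0796 for Krt71. The filter on all 6 arrays drops Krt23, which was above background in controls only, so its calls elsewhere say nothing about stability. No pairing by replicate number was seen: deviations of same-numbered arrays correlated at -0.31, 0.11 and -0.02 over genes, and not every array correlated best with its own number. With 3 arrays a group this cannot settle whether same-numbered arrays shared a culture or day, which the labels do not say. The replicate block gave 2 simple-epithelial and 2 other keratins and 1945 genes in all, and with it Krt14 did not pass (adjusted p = 0.0966). Signal near background limits Krt23, Krt84 and most hair and root sheath keratins, where the size of a change depends on the background correction.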

Other observations

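A pair of dim keratin probes, chosen after their values were seen, had 1 bright array each. Krt25, an inner root sheath keratin, read 335 on BRG1 siRNA replicate 1 and 11.7 to 32.7 on the other 5 arrays. Krt31, a hair keratin, read 169 on control replicate 2 and 14.3 to 53.6 on the others. Neither gene was tested, since neither was above background on every array of a group.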
